A study of Mus musculus with 6 samples.

Results

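Neutrophils carry their antimicrobial proteins and proteases in granules and reach inflamed tissue along chemokine gradients, and the 10 genes described here encode parts of both systems in the mouse colon. They are the receptor genes *Cxcr2*, *Csf3r* and *Trem1*, the granule metalloproteinase genes *Mmp8* and *Mmp9*, the alarmin genes *S100a8* and *S100a9*, the secreted proteins *Retnlg* and *Lcn2*, and the surface antigen gene *Ly6g*. They were taken by symbol from the 27202 genes of the deposited table, and all 10 were found there. RNA was sequenced from the colon of 3 *Nedd4l* fl/fl VillinCre libraries (cKO1 to cKO3) and 3 *Nedd4l* fl/fl littermate libraries (WT1 to WT3). The mice were 8 to 10 weeks old and all 6 libraries came after 2% dextran sulfate sodium (DSS), an agent that injures the colonic epithelium, was given in drinking water for 7 days. Both groups carried the floxed *Nedd4l* alleles on a C57BL/6J background, and they differed in Cre recombinase driven by the Villin promoter, which is active in intestinal epithelial cells. *Nedd4l* encodes a ubiquitin ligase, and cells outside the epithelium keep the gene. No group without DSS was analysed here, so each comparison below is between genotypes in inflamed colon.

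In the blood, neutrophils hold the chemokine receptor CXCR2 and the granulocyte colony-stimulating factor receptor CSF3R on their surface, and epithelial and stromal cells of an inflamed gut release the matching ligands. S100A8 and S100A9 form calprotectin, the abundant cytosolic metal-binding complex of neutrophils that is measured in stool as a sign of intestinal inflammation. Some of the 10 genes are also used by other cells, since monocytes can carry S100A8 and S100A9, and colonic epithelium makes LCN2. In bulk tissue, a different number of cells of a type and a different amount of RNA per cell cannot be told apart, and this applies to every value below.

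The promoter sequences of 5 members are shown because these 5 hold the letters of a C/EBP family motif, C/EBP proteins being transcription factors of granulocyte differentiation. Windows of 250 bases before the RefSeq transcription start, on build GRCm38.p6, were found for 9 of the 10 members, with 2 windows for *Ly6g* and none for *Mmp9*. The letters TTGCNNAA, searched on both strands, were present in *Mmp8*, *S100a9*, *Lcn2*, *Retnlg* and the first *Ly6g* window, against 9.56% of all 32851 promoter windows. Each sequence is written 5′ to 3′ along the gene, with the matching letters in capitals.
Mmp8 (chr9:7558179-7558428, plus strand): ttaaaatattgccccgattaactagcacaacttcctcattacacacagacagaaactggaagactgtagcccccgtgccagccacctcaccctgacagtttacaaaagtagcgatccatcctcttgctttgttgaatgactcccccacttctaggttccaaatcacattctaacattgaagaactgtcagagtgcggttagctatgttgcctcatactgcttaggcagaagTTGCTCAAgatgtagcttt
S100a9 (chr3:90695722-90695971, minus strand): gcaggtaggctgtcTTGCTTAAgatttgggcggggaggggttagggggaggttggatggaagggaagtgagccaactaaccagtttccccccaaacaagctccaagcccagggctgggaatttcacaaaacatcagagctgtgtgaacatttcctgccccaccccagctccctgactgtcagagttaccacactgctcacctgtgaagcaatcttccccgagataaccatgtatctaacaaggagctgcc
Lcn2 (chr2:32387740-32387989, minus strand): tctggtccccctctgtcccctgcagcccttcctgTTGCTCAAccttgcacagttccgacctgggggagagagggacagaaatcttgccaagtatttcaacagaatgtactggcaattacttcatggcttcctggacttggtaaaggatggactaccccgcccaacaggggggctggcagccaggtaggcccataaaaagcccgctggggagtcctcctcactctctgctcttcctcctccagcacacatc
Ly6g (chr15:75155011-75155260, plus strand): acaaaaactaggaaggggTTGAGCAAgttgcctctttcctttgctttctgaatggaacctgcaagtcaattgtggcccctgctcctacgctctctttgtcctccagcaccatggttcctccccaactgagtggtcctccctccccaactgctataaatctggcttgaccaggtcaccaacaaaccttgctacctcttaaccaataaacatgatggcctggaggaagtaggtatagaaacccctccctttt
Retnlg (chr16:48872358-48872607, plus strand): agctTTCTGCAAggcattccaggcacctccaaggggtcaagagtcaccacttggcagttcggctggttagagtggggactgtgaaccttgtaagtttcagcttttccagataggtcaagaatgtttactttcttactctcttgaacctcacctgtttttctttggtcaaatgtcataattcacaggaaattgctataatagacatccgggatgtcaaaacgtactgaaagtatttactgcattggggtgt
The match began 19 bases before the start in *Mmp8*, 216 in *Lcn2*, 232 in *Ly6g*, 236 in *S100a9* and 246 in *Retnlg*, and it was read on the opposite strand in *Ly6g* and *Retnlg*. The NF-kappaB letters, GGG and CC with any 5 bases between, were searched the same way and were in 4 members, *Cxcr2*, *Csf3r*, *Lcn2* and *Ly6g*, against 45.8% of all windows. The C/EBP and NF-kappaB matches shared bases in 0 of the 10 windows of the members. The letters describe the sequence, and binding was not measured. *Lcn2* and *Ly6g* held both kinds of letters.

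All values are normalized counts, scaled between libraries by the authors, and in each library they rose in even steps of 0.900 to 1.11 units. The library totals, counted in these steps, ran from 14914367 to 17547270. Gene coordinates below are those of the table, which match build GRCm38. *Nedd4l*, the deleted gene, read 476, 942 and 566 in cKO1, cKO2 and cKO3 and 1241, 1271 and 1266 in the WT libraries. All 3 VillinCre libraries lay below all WT libraries, with cKO2 nearest to them, and the log2 fold change was -0.99 ± 0.24 (SE, adjusted p = 0.225 by limma). Across genes, the profile of cKO2 correlated more closely with the WT libraries (mean r = 0.977) than with its own group (0.966), whereas cKO1 and cKO3 were each closest to their own group. The fold changes of the members are therefore also given without cKO1 or without cKO2. In the same libraries the summed colonic epithelial markers ranged from 179298 to 220029 in the VillinCre group and from 199846 to 218588 in the WT group.

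*Cxcr2* (ENSMUSG00000026180, chr1:74153989-74161246, plus strand) encodes the receptor for the CXC chemokines that draw neutrophils into tissue. It read 181 in cKO1, 4.42 in cKO2 and 20.6 in cKO3, and 0, 2.70 and 0 in the WT libraries. All VillinCre libraries lay above all WT libraries, although cKO2 did so by less than 2 units. The log2 fold change was 4.17 ± 1.29 (SE) with an unadjusted limma p of 0.0151 and an adjusted p of 0.285. *Trem1* (ENSMUSG00000042265, chr17:48232768-48246924, plus strand) encodes a receptor that amplifies myeloid inflammatory signals, and its transcripts read 201, 7.74 and 51.6 in cKO1, cKO2 and cKO3 against 3.95, 2.70 and 3.00 in the WT libraries. The groups did not overlap, and the log2 fold change was 3.44 ± 1.07 (SE, adjusted p = 0.289 by limma). A gene model on the opposite strand overlaps *Trem1*, and strand use in the counting is not given in the sources used here, so reads of the pair cannot be told apart. *Csf3r* (ENSMUSG00000028859, chr4:126024550-126044440, plus strand), the receptor for granulocyte colony-stimulating factor, read 507, 76.3 and 153 in the VillinCre libraries and 88.9, 43.2 and 75.9 in the WT libraries. Here cKO2 lay between WT3 and WT1, so the groups overlapped, and the log2 fold change was 1.43 ± 0.71 (SE, adjusted p = 0.418 by limma).

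*Mmp8* (ENSMUSG00000005800, chr9:7558456-7568485, plus strand) encodes neutrophil collagenase, stored in secondary granules. Its values were 406, 6.63 and 36.1 in cKO1, cKO2 and cKO3 and 2.96, 0.900 and 0 in the WT libraries. The groups did not overlap, and the log2 fold change of *Mmp8* was 4.63 ± 1.45 (SE, adjusted p = 0.298 by limma). With a pseudocount of 5 in place of 1 it was 3.24, since the WT level was near 0. *Mmp9* (ENSMUSG00000017737, chr2:164940780-164955850, plus strand) encodes gelatinase B, a protease of tertiary granules. It read 533, 38.7 and 95.9 in the VillinCre libraries and 19.8, 17.1 and 15.0 in the WT libraries. The WT libraries were close together, all VillinCre libraries lay above them, and the log2 fold change was 2.81 ± 0.92 (SE, adjusted p = 0.310 by limma).

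*S100a8* and *S100a9* encode the paired subunits of calprotectin and both lie on chromosome 3, on opposite strands. *S100a8* (ENSMUSG00000056054, chr3:90668978-90670035, plus strand) read 2708 in cKO1, 31.0 in cKO2 and 417 in cKO3, and 12.8, 38.7 and 29.0 in the WT libraries. Its value in cKO2 lay inside the WT range, and the log2 fold change was 3.70 ± 1.60 (SE, adjusted p = 0.375 by limma). *S100a9* (ENSMUSG00000056071, chr3:90692632-90695721, minus strand) read 2680, 27.6 and 348 in cKO1, cKO2 and cKO3, against 15.8, 10.8 and 15.0 in the WT libraries. For this gene the groups did not overlap, and the log2 fold change was 4.35 ± 1.59 (SE, adjusted p = 0.333 by limma). Per kilobase of gene length, the ratio of *S100a8* to *S100a9* was 0.760, 0.842 and 0.902 in cKO1, cKO2 and cKO3, and 0.611, 2.70 and 1.45 in the WT libraries. The ratio was close to the same value in the 3 VillinCre libraries, although their levels differed widely, and it was spread out in the WT libraries. Both genes were low in the WT libraries and also in cKO2.

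*Retnlg* (ENSMUSG00000022651, chr16:48872621-48874496, plus strand) encodes a resistin-like protein found in granulocytes, and read 672, 11.1 and 60.9 in cKO1, cKO2 and cKO3 against 19.8, 1.80 and 6.99 in the WT libraries. The value of cKO2 lay inside the WT range, and the log2 fold change was 3.36 ± 1.58 (SE, adjusted p = 0.405 by limma). *Lcn2* (ENSMUSG00000026822, chr2:32384633-32388252, minus strand) encodes lipocalin 2, a siderophore-binding protein of secondary granules and of epithelium. It read 952, 40.9 and 175 in the VillinCre libraries and 39.5, 53.1 and 87.9 in the WT libraries. Again cKO2 lay inside the WT range, and *Lcn2* had the largest p of the members, with a log2 fold change of 1.73 ± 1.13 (SE, adjusted p = 0.521 by limma).

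*Ly6g* (ENSMUSG00000022582, chr15:75155240-75159126, plus strand), the surface antigen by which mouse neutrophils are usually recognised, differed from the other members in direction. It read 2486, 2832 and 2200.2 in cKO1, cKO2 and cKO3 and 2829, 3136 and 3064 in the WT libraries. cKO2 lay just above WT1, so the groups overlapped, and the log2 fold change was -0.27 ± 0.11 (SE, adjusted p = 0.329 by limma). It was the only member whose mean was lower in the VillinCre group. Per kilobase of gene length its WT mean was 3195, beside 38.7 for *S100a8*, the next member. Which cells gave the *Ly6g* reads was not tested, so its level is not read here as a measure of neutrophils. *Ly6g* belongs to a family of similar genes, and how reads shared between copies were counted is not given in the sources used here.

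**Figure D1:**
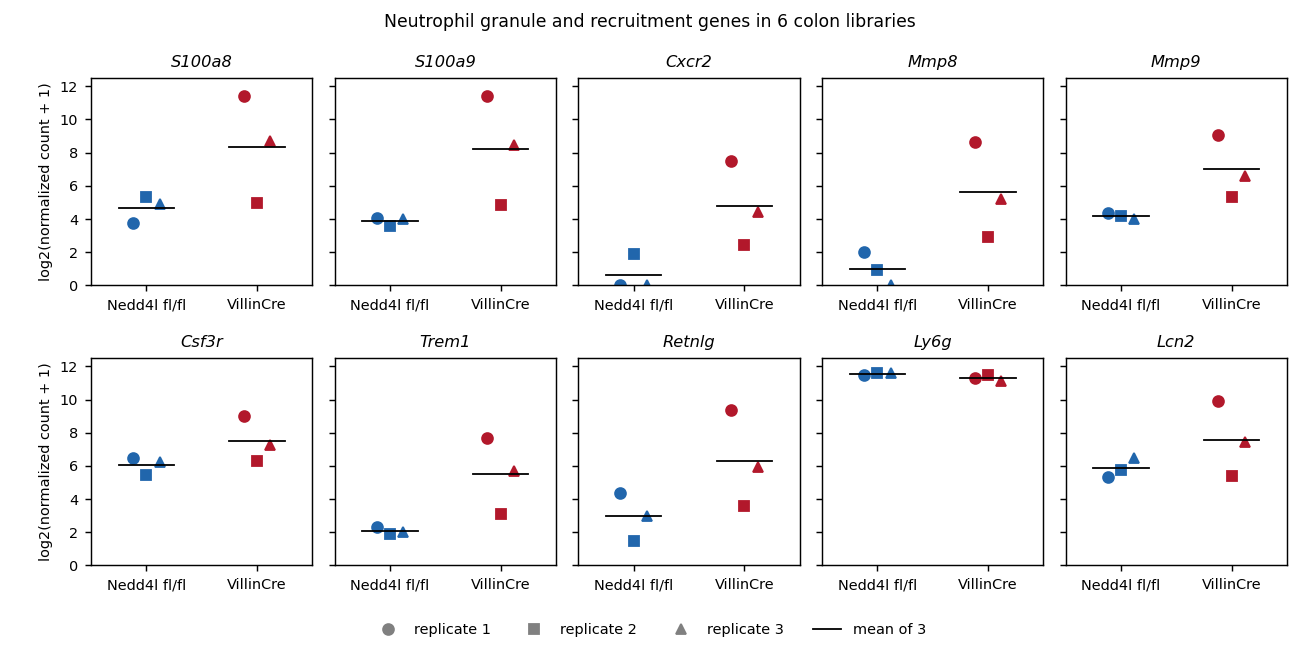
Normalized counts of each of the 10 members in the 6 libraries, as log2(value + 1) on the vertical axis, 1 symbol per library (replicate 1 of VillinCre is cKO1, replicate 1 of Nedd4l fl/fl is WT1), with the mean of each 3 as a line. In 9 panels cKO1 lies on top and cKO3 next, and the *Ly6g* panel shows all 6 libraries close together.

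No member passed an adjusted p of 0.05 in limma, and over all 16246 tested genes the share was 0% in each direction, the smallest adjusted p being 0.1111. In sign, 9 of the 10 members were higher, beside 50.2% of tested genes. At an unadjusted p under 0.05, 5 members were higher (*S100a9*, *Cxcr2*, *Mmp8*, *Mmp9* and *Trem1*) and 1 was lower (*Ly6g*), beside 6.91% and 7.08% of all tested genes. These 5 genes were also the members whose VillinCre libraries all lay above all WT libraries, against 10.5% of tested genes, and 0 members lay wholly below, against 10.9%. The group means were 1018 ± 1448 against 13.9 ± 2.68 for *S100a9*, 68.7 ± 97.7 against 0.900 ± 1.56 for *Cxcr2*, 149.7 ± 223 against 1.29 ± 1.52 for *Mmp8*, 223 ± 270.4 against 17.3 ± 2.39 for *Mmp9* and 86.9 ± 101 against 3.21 ± 0.654 (SD, n = 3) for *Trem1*, and the SD exceeded the mean in the VillinCre group for each of these 5. With 3 libraries a side an exact permutation test cannot give a p below 0.10. A log2 fold change above 2 was found for 7 of the 10 members and for 0.542% of tested genes. The median log2 fold change was 3.40 over the members and 0.0013 over all tested genes. *Cxcr2*, *Mmp8*, *Trem1* and *Retnlg* had a WT mean under the filter minimum of 10 and entered the test through the VillinCre libraries, so these shares are descriptions. The fold changes of these genes also depend on the pseudocount of 1, which understates a change from a level near 0. With a pseudocount of 5 the log2 fold change of *Cxcr2* was 2.62 and the median of the members 2.66.

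**Figure D2:**
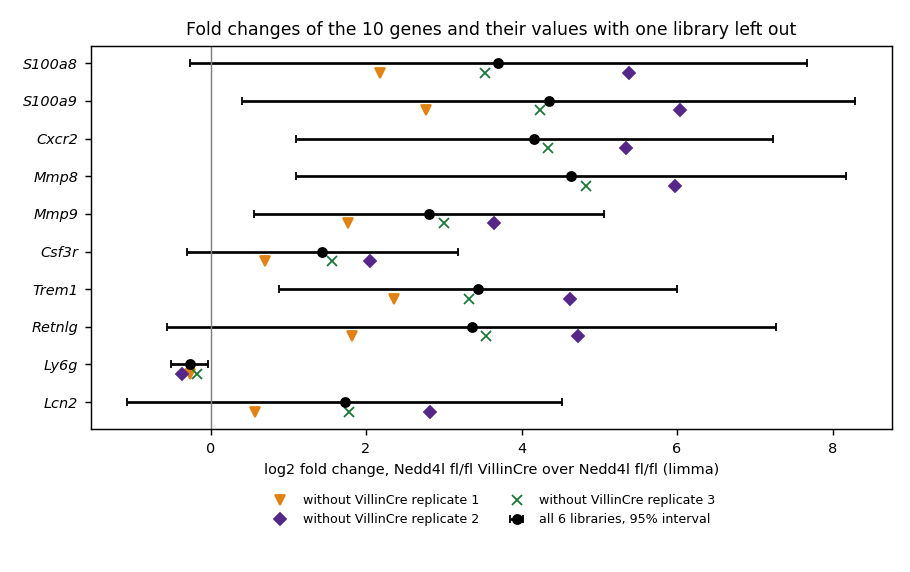
Log2 fold change of each member, VillinCre over WT, with its 95% confidence interval from limma. The estimates run from -0.27 for *Ly6g* to 4.63 for *Mmp8*, and the widest intervals belong to the genes with the largest spread between VillinCre libraries.

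The VillinCre libraries differed widely among themselves. In 9 of the 10 members cKO1 was highest and cKO3 second of the 6 libraries, an order found in 9.5% of all tested genes. In those 9 genes cKO3 held between 8.88% and 30.1% of the cKO1 value (median 15.4%), cKO2 between 1.03% and 15.0% (median 2.44%), and the WT mean between 0.317% and 13.7% (median 1.42%). cKO2 lay above all WT libraries in 5 members and inside the WT range in the other 5. On the log2 scale the SD over the 3 VillinCre libraries was 1.37 to 3.28 for the 9 genes and 0.18 for *Ly6g*, beside a median of 0.193 over all tested genes. In the WT group the same 9 genes had an SD of 0.19 to 1.45, beside a median of 0.166. The SD of 9 members in the VillinCre group exceeded the 95th percentile of all tested genes, a mark that 5% of genes pass by construction. In the WT group 4 members did so, *S100a8*, *Cxcr2*, *Mmp8* and *Retnlg*. These 4 read 38.7 or less in every WT library, and at such levels a few units give a large SD on the log2 scale. The highest value of cKO1 relative to the highest WT library was 169.6-fold, for *S100a9*, and the lowest of the 9 was 5.71-fold, for *Csf3r*. *Nedd4l* was lowest in cKO1, next in cKO3 and highest in cKO2 among the VillinCre libraries, which is the reverse of the order of the 9 members. Whether the levels are related was not tested.

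Leaving out cKO1 or cKO2 moved the fold changes and kept the direction of each member tested. Without cKO1, *S100a8* stood at 2.18, *S100a9* at 2.77, *Mmp9* at 1.77, *Csf3r* at 0.69, *Trem1* at 2.36, *Retnlg* at 1.82, *Ly6g* at -0.27 and *Lcn2* at 0.57 on the log2 scale, while *Cxcr2* and *Mmp8* no longer reached the filter. Without cKO2, *S100a8* stood at 5.39, *S100a9* at 6.04, *Cxcr2* at 5.34, *Mmp8* at 5.97, *Mmp9* at 3.65, *Csf3r* at 2.05, *Retnlg* at 4.72, *Ly6g* at -0.36 and *Lcn2* at 2.82. All 9 members higher in the VillinCre group were then without overlap. That count stands beside 18.5% of all genes tested without cKO2, and the single member then wholly below the WT libraries, *Ly6g*, beside 19.1%. Without cKO1, 3 of the 8 members tested (*S100a9*, *Mmp9* and *Trem1*) lay wholly above and 0 wholly below, beside 15.1% and 15.7%. Without cKO2, *Trem1*, at 4.62, was the single member past the threshold (adjusted p = 0.0328 by limma). It entered that fit through the VillinCre libraries, its WT mean being 3.21. Over all 16256 genes of that fit, 70 passed higher and 52 lower. Across genes, cKO2 was the VillinCre library nearest to the WT libraries, so leaving it out favours separation of the groups. The counts and p-values without cKO2 are therefore descriptions.

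Compared per kilobase of gene length, *Ly6g* was the most abundant member in both groups, with a mean of 2661 in VillinCre and 3195 in WT libraries. In the WT libraries the next members were *S100a8* at 38.7 and *S100a9* at 26.5, and *Cxcr2* was lowest at 0.295. In the VillinCre libraries the means of *S100a9* and *S100a8* were 1951 and 1516, *Retnlg* 418 and *Lcn2* 148. In cKO1 alone, *S100a9* at 5134 and *S100a8* at 3902 per kilobase exceeded *Ly6g* at 2640. The order of *Csf3r*, *Mmp9* and *Mmp8* in the VillinCre group (68.0, 62.9 and 61.7 per kilobase) differs by less than the spread between their libraries.

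The other genes of neutrophil biology were read from 12 lists of 104 genes outside the 10 members, of which 84 passed the filter. Of these 71 were higher and 13 lower in mean, and 0 passed the adjusted threshold in limma. At an unadjusted p under 0.05, 25 were higher and 0 lower, beside 6.91% and 7.08% of all tested genes. Wholly above the WT libraries lay 28 and wholly below lay 0, beside 10.5% and 10.9% of all tested genes. In 48 of the 84, cKO1 was highest and cKO3 second, beside 9.5%. Their median log2 fold change was 0.65, beside 0.0013 over all tested genes. *Chil3*, *Hp*, *Fpr1*, *Clec4e*, *Hdc*, *Cxcl2*, *Cxcl3* and *Csf3* are among those with a WT mean under the filter minimum of 10. Such genes entered the test through the VillinCre libraries, so these shares and the counts by list below are descriptions. Outside the members, 50 named or nearby genes were refitted without single libraries. Most had been picked in these same libraries, by p, by profile or after their values were seen, so their counts are descriptions. Without cKO1, 4 of them were under the filter and 24 had a log2 fold change more than 1.5 times smaller. Without cKO2, 9 had one more than 1.5 times larger and 8 passed the threshold in limma. Over all 16256 genes tested without cKO2, 70 passed higher and 52 lower.

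Among 8 tested genes of the secondary and tertiary granules, 7 were higher in mean and 2 reached an unadjusted p under 0.05. *Chil3*, a chitinase-like protein of myeloid cells, read 1002, 46.4 and 93.9 in cKO1, cKO2 and cKO3 against 10.9, 0.900 and 3.99 in the WT libraries (log2 fold change 5.10, adjusted p = 0.257 by limma). *Hp*, haptoglobin, stood at 3.97 and *Ltf*, lactoferrin, at 1.73 on the log2 scale. *Cd177* read 5313, 13152 and 11602 in the VillinCre and 11685, 13435 and 14771 in the WT libraries. *Pglyrp1* read 5167, 5036 and 6775 in the VillinCre and 4585, 4657 and 4959 in the WT libraries, so that its groups did not overlap, with a log2 fold change of 0.24 (adjusted p = 0.398 by limma). *Cd177* and *Pglyrp1*, named after their values were seen, were, like *Ly6g*, at 2200.2 units or more in every library. Which cells gave the reads of these genes was not tested. The primary granule genes *Mpo*, *Elane*, *Prtn3* and *Ctsg* were under the filter and summed to 0.900 to 11.5 in each library.

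All 15 tested surface receptor genes were higher in mean, 4 of them at an unadjusted p under 0.05, and 12 had cKO1 highest and cKO3 second. The formyl peptide receptor genes *Fpr1* and *Fpr2*, which sense bacterial peptides, stood at 2.90 and 1.86 on the log2 scale. *Fpr1* read 94.9, 24.3 and 12.4 in the VillinCre libraries and 5.93, 1.80 and 3.00 in the WT libraries, so that cKO2 exceeded cKO3. *Itgb2*, the integrin chain of leukocyte adhesion, read 454.7 ± 94.2 in WT and 646.2 ± 101.4 in VillinCre libraries (SD, n = 3). *Clec4e*, a myeloid lectin receptor, stood at 3.70 (adjusted p = 0.314 by limma).

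The ligands that recruit neutrophils were higher in mean for all 8 tested genes, 4 at an unadjusted p under 0.05, and cKO1 was highest and cKO3 second in all 8. *Cxcl1*, a ligand of CXCR2, read 138.0, 53.1 and 118.6 in the VillinCre and 20.7, 36.0 and 28.0 in the WT libraries (log2 fold change 1.76, adjusted p = 0.202 by limma). *Il1b*, a cytokine that induces such ligands, read 993.1, 255.4 and 423.9 against 112.6, 72.0 and 91.9, with a log2 fold change of 2.38 (adjusted p = 0.211 by limma). *Cxcl3* stood at 4.15, *Cxcl2* at 2.78, *Cxcl5* at 2.48 and *Csf3*, the ligand of CSF3R, at 3.20. Without cKO1, *Cxcl2* stood at 1.59 and *Cxcl5* at 1.46, and *Cxcl3* and *Csf3* were under the filter. In cKO2, *Cxcl1* and *Il1b* were still above all WT libraries, while *Cxcl2* read 6.63 in cKO2 against 5.99 to 11.7 in the WT libraries.

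Of 10 tested cytosolic and secreted genes of mature neutrophils, all were higher in mean and 4 reached an unadjusted p under 0.05. *Hdc*, which makes histamine, read 328.8, 27.6 and 56.7 in the VillinCre and 10.9, 6.30 and 9.99 in the WT libraries. *Slpi*, a protease inhibitor that epithelium also secretes, read 1079.8 ± 407.9 in VillinCre and 471.3 ± 104.5 in WT libraries (SD, n = 3). *G0s2*, a regulator of lipid breakdown, stood at 1.18 on the log2 scale. *Hdc* was also, by profile over the 6 libraries, the gene closest to the mean of the 9 members other than *Lcn2*, with a root mean square difference of 0.385 in log2 among 11868 protein-coding genes with a mean of at least 50. It was followed by *Myl7* (0.408), *Mmp3* (0.473), *Cxcl5* (0.496) and *Mmp10* (0.523). The mean used here includes *Ly6g*, so its 9 members are not the 9 genes with cKO1 highest and cKO3 second. Among the genes closest to *Lcn2* were *Gm4841* (0.304), *Ltf* (0.451), *Acod1* (0.459) and *Il1r2* (0.479).

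**Figure D3:**
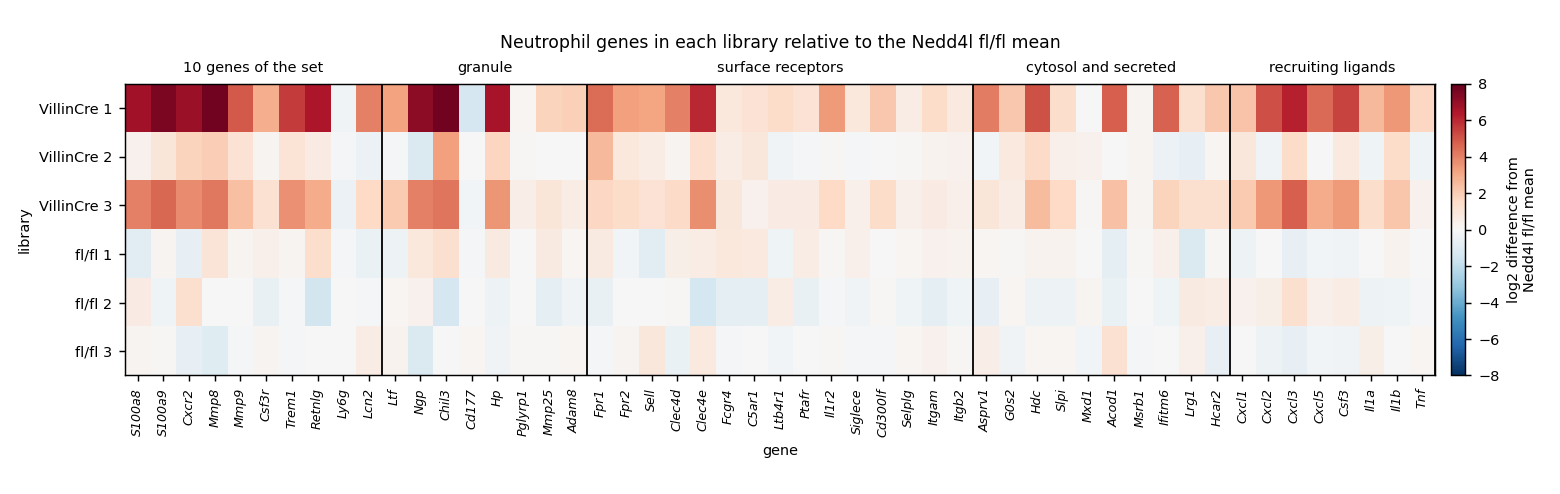
Levels of the members and of the tested genes of 4 neutrophil lists (columns) in the 6 libraries, as the log2 difference of each library (rows, VillinCre 1 being cKO1 and fl/fl 1 being WT1) from the mean of the WT libraries. The VillinCre 1 row is the strongest for most genes and VillinCre 3 the next, while *Ly6g* and *Cd177* are lower in mean in the VillinCre libraries and *Pglyrp1* is higher by 0.24 on the log2 scale.

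The endothelial adhesion genes were higher in mean for all 5 tested, 3 at an unadjusted p under 0.05. *Icam1*, which binds leukocyte integrins, stood at 0.96, *Vcam1* at 0.73 and *Selp*, the P-selectin gene, at 1.83. The 6 genes of the phagocyte NADPH oxidase, the enzyme of the oxidative burst, were all higher in mean, 3 of them at an unadjusted p under 0.05 and with a list median of 0.34. *Cyba* read 1719.6 ± 219.9 in VillinCre and 1279.7 ± 191.1 in WT libraries, and *Cybb* 674.6 ± 67.5 and 438.0 ± 120.6 (SD, n = 3). Among 7 genes of S100A8/A9 sensing and TREM1 signaling, 5 were higher and 2 lower, and *Tyrobp*, the adaptor of TREM1, stood at 1.13 (adjusted p = 0.211 by limma). *Tlr4*, a receptor for calprotectin, read 747.2 ± 145.3 and 605.3 ± 31.1 (SD, n = 3). Of the 3 leukotriene B4 synthesis genes, *Alox5ap* had a log2 fold change of 1.27 (adjusted p = 0.360 by limma). *Alox5* and *Lta4h* had log2 fold changes of -0.17 and -0.10. Of 5 metalloproteinase inhibitor genes, 0 reached an unadjusted p under 0.05, and *Timp1*, an inhibitor of MMP9, read 129.5 ± 156.2 in VillinCre and 18.9 ± 8.65 in WT libraries (SD, n = 3). Of 7 transcription factor genes, 5 were higher, with *Cebpb* at 0.65, *Cebpd* at 0.54 and *Cebpa* at -0.04 on the log2 scale. *Cebpe*, a C/EBP factor of late granulocyte differentiation, was under the filter, at 0.737 ± 1.28 in VillinCre and 2.55 ± 2.47 in WT libraries (SD, n = 3).

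*Lcn2* was set beside 10 tested genes listed as its epithelial inflammatory partners, of which 6 were higher and 4 lower in mean. The 4 lower were *Duox2*, *Saa1*, *Pigr* and *Slc22a17*, at -0.05, -0.06, -0.22 and -0.38 on the log2 scale. *Saa3*, an acute-phase protein, read 3086, 54.2 and 402 in cKO1, cKO2 and cKO3 against 21.7, 30.6 and 15.0 in the WT libraries. The order of the 3 VillinCre libraries was that of *Lcn2*, but cKO2 lay above all WT libraries for *Saa3* and inside their range for *Lcn2*. *Reg3b*, an antibacterial lectin of enterocytes, read 11785, 1372 and 1891 in the VillinCre and 213, 1826 and 1574 in the WT libraries. *Reg3b* differed between WT libraries as well, and its log2 fold change was 1.88 (adjusted p = 0.507 by limma). Neither *Lcn2* nor these genes can be assigned to epithelium or neutrophils from bulk RNA.

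Markers of the other cell types in the tissue were summed to show what moved with these values. The pan-leukocyte sum of *Ptprc*, *Coro1a* and *Laptm5* was 4240 to 6563 in the VillinCre and 3523 to 4742 in the WT libraries, and cKO1 was highest. The monocyte sum was 17367 to 21337 against 14787 to 15906, without overlap. *Plac8* made up most of that sum, and without it the sums were 1843 to 2228 and 1077 to 2021, which overlap. The monocyte gene *Ly6c2* read 395.9, 426.7 and 395.1 against 164.9, 81.9 and 164.8 (adjusted p = 0.137 by limma), whereas *Csf1r* and *Cx3cr1* overlapped between the groups. The eosinophil sum was 58.8 to 86.3 against 34.9 to 44.4, and it differed mainly through *Prg2*. The VillinCre and WT means were 36.2 and 9.26 for *Prg2*, 37.0 and 29.3 for *Siglecf*, and 1.40 and 2.63 for *Ccr3*. The macrophage sum was 3105 to 4751 against 1992 to 4469. The B cell sum was 1257 to 3367 against 1046 to 2217, with cKO1 highest, and the T cell sum 539 to 627 against 512 to 719. The squamous epithelial sum was 282 to 598 against 225 to 732, and *Sprr1a* made up most of that sum in every library. Of 4 tested genes of this list, 1 was higher and 3 were lower on the log2 scale. The higher one, *Krt13*, read 184, 24.3 and 42.3 against 10.9 to 12.6, the order of the 9 members. *Krt14* stood at -0.29, *Sprr1a* at -0.26 and *Krt10* at -0.14. *Krt4* and *Trp63* were at 2.06 or less in every library. The smooth muscle sum was 5373 to 10562 against 4790 to 20409, with WT2 highest, so it differed widely within the WT group. The colonic epithelial sum was lowest in cKO1, at 179298. The part of these cells in the values of the 10 genes was not tested.

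**Figure D4:**
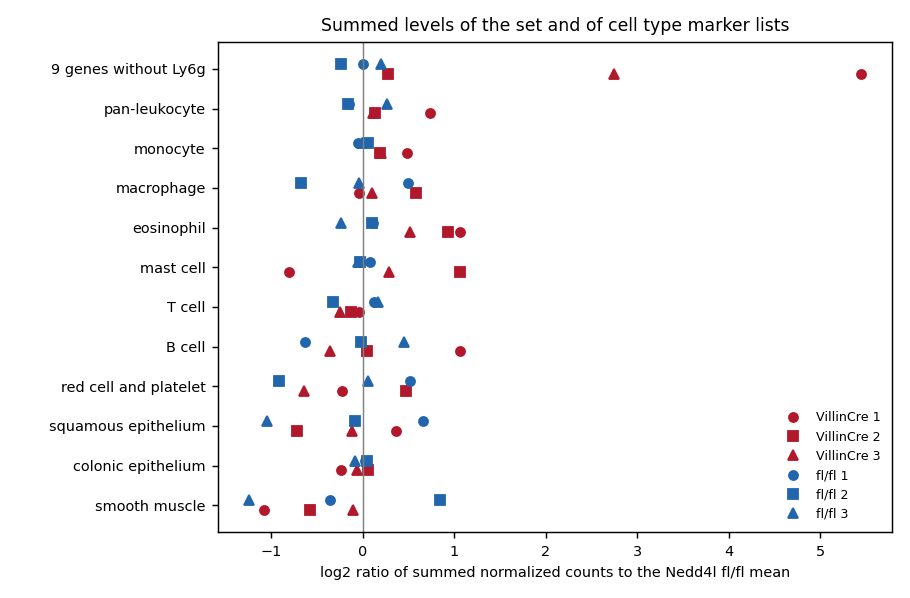
Log2 ratio of the summed normalized counts in each library (symbols) to the mean of the WT libraries, for the members without *Ly6g* and for each marker list (rows). The members' sum is 8841 in cKO1 and 1357 in cKO3, against 171 to 244 in the other 4 libraries, whereas most cell type sums differ far less between libraries.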

How the data were processed

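RNA from mouse colon was prepared with TRIzol and the NEBNext Ultra RNA kit. The submitters' processing notes list HISAT2 2.0.5 and featureCounts 1.5.0-p3, and they list hg18, a human build, although the coordinates of the table are those of GRCm38. The deposited signal values are normalized counts per gene, scaled by the authors. Whether counting used strand is not given in the sources used here. The deposited table also holds the authors' log2 fold changes and p-values, which were not used.

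Values were tested as log2(value + 1) with limma 3.58.1 in R 4.3.3 (trend and robust), on 16246 genes with a mean of at least 10, 3 VillinCre against 3 WT libraries, two-sided, p-values being adjusted over all tested genes by Benjamini-Hochberg and called at 0.05. The script was tested on simulated data. The labels do not say that each library is 1 mouse, so p-values measure only the spread between these samples. The members and gene lists were chosen with earlier results of these data known. Text genes were the members, *Nedd4l*, up to 3 genes per list by p, and the 5 nearest profiles, of which 1 gene is not reported here. *Cd177*, *Pglyrp1*, *Ngp*, *Ltf*, *Clec4e*, *Cxcl2*, *Cxcl5*, *Csf3*, *Mcpt1*, *Kit*, *Plac8*, *Cebpa*, *Cebpe* and *Krt13* were chosen after their values were seen. Promoters were taken from RefSeq. Alternatives were other pseudocounts, filters, weights, scalings and leaving out each library.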

Additional observations from a re-analysis of the deposited data

How the results depend on the processing

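With a pseudocount of 5 the median log2 fold change of the members was 2.66, against 3.40 as reported, and no call changed. The count of all genes passing was 0 higher and 0 lower in the reported fit, 7 and 23 without a filter on low values, and 262 and 369 with limma array weights. With array weights 3 members passed higher (*Cxcr2*, *Mmp8* and *Trem1*, whose WT means of 0.900, 1.29 and 3.21 lie under the filter, so that they were tested through the VillinCre libraries) and 1 lower (*Ly6g*), and *Nedd4l* passed at a log2 fold change of -1.095. Leaving out 1 library at a time, all-gene counts ran from 0 to 70 higher and from 0 to 52 lower, members passing higher from 0 to 1, members without overlap from 3 (of 8 tested, without cKO1) to 9 (without cKO2) higher and from 0 to 1 lower, the median of the members from 1.80 to 4.67, and *Nedd4l* from -1.28 to -0.79. *Nedd4l* passed without cKO2, the VillinCre library in which it was highest. TMM scaling or quantile normalization left 1 member wholly below the WT libraries. Leaving out 1 library at a time, *Alox5* ran from -0.57 to 0.24, turning positive without cKO3 (0.24) and without WT3 (0.042). All 10 members kept their direction in every alternative in which they were tested, and the cause of these shifts was not tested. With the replicate number as a block, 0 genes passed and no call changed. Same-numbered libraries had correlations of deviations from -0.0898 to -0.0286, which show no pairing by number. Deviations from a mean of 3 libraries are tied within each group, so these correlations cannot exclude pairing. The planned edgeR and DESeq2 fits on recovered reads were not run, because a check of units did not accept WT3, whose step was 0.9985. The WT3 values were nonetheless whole steps to within 2.33e-06. With 3 libraries a side, low levels such as *Cxcr2* in the WT group rest on a few reads.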

Other observations

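*Mcpt1*, a mast cell protease, was ordered unlike the neutrophil genes, with 111 in cKO1, 643 in cKO2 and 274 in cKO3 and 35.1 to 68.1 in the WT libraries (adjusted p = 0.264 by limma). The mast cell sum was 467 to 1697 in the VillinCre and 788 to 861 in the WT libraries, with cKO2 highest and cKO1 lowest. *Kit*, which other cells also express, read 283 in cKO1 against 703 to 739 in the WT libraries, and without it the sums were 184 to 1052 and 71.1 to 122, with cKO1 the lowest of the VillinCre libraries and above all WT libraries. *Ngp*, a secondary granule gene, read 312, 0 and 36.1 against 2.96, 1.80 and 0, with the same high libraries as the 9 members.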
